A study of Mus musculus with 217 samples.

Results

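The dorsolateral striatum (DLS), the lateral part of the dorsal striatum that is associated with habits and motor skills, was compared between the early dark phase and the early light phase. The 23 libraries were those of the DLS table whose column names carry ZT14 (12 libraries, 6 from females and 6 from males) or ZT2 (11 libraries, 5 from females and 6 from males), out of 70 DLS libraries and 217 libraries in the whole study. Zeitgeber time (ZT) counts hours from lights on, so ZT14 falls 2 h after lights off and ZT2 falls 2 h after lights on. All mice in both groups were C57BL/6J of about 10 weeks, untreated and housed in 12 h of light and 12 h of dark with free food and water. The study sampled 3 striatal subregions at 6 times of day, 4 h apart, from bilateral punches of 1 mm, and sequenced total RNA. Each library at ZT14 and ZT2 comes from a separately named animal. Every value is the log2 of a count normalised for depth by the authors, plus 1, so levels are not per transcript length and are compared between times only, never between genes.

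The mammalian clock is a loop of transcription factors. Arntl (also called BMAL1) pairs with Clock or Npas2, binds E-box sequences and switches on Per, Cry, Nr1d and Bhlhe genes, whose proteins act back on Arntl and its partners. The same loop drives output genes such as Dbp, Tef and Hlf, which bind a second element, the D-box. Mice are nocturnal, so ZT14 lies in the hours of activity and feeding, near the daily peak of corticosterone, and ZT2 lies near the start of the rest phase.

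Of 11394 genes, 454 were higher and 429 lower at ZT14 than at ZT2 at a Benjamini-Hochberg adjusted p of less than 0.05 in limma, with sex as a covariate. That is 7.75% of all genes tested, 3.98% higher and 3.77% lower. The differences were mostly small: the median called gene differed 1.23-fold, 488 called genes (55.3%) differed by less than 1.25-fold, and 13 were more than 2-fold higher against 1 that was more than 2-fold lower. In 47 genes (0.412% of those tested) no library of one time overlapped any library of the other, with 30 higher (0.263%) and 17 lower (0.149%) at ZT14. When libraries were instead scaled to an equal sum over all genes, which moved the median of all genes to -0.096 on the log2 scale, 111 genes were higher and 485 lower, so that 18.6% of calls were higher in place of 51.4%, and 472 of the 883 calls were shared. With the 3 most abundant genes of each library left out of that sum, 409 were higher and 428 lower, and 812 of the 883 calls were shared. In bulk tissue, fewer cells of a type and less RNA per cell cannot be told apart, here and in every result that follows.

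**Figure D1:**
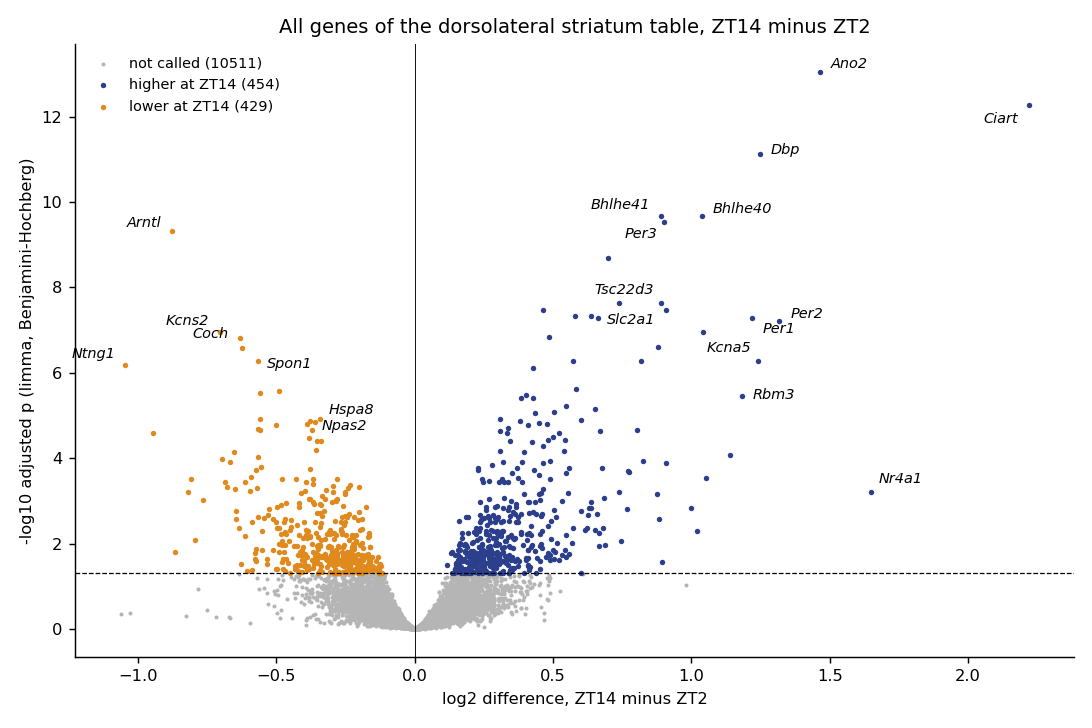
Log2 difference (ZT14 minus ZT2, x axis) against -log10 of the adjusted p (y axis) for the 11394 genes of the dorsolateral striatum; the dashed line marks an adjusted p of 0.05. Blue points are the 454 genes higher at ZT14 and orange points the 429 lower at ZT14. Among called genes the largest differences are 2.22 for Ciart on the right and -1.05 for Ntng1 on the left.

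The recovered depth over the listed genes was 37069975 to 56799764 reads, and 15.3 to 28.3 M of these remained once the top 3 genes of a library were set aside. Mitochondrial ribosomal RNA took 43.97 ± 5.35% of reads at ZT14 (SD, n = 12) and 41.57 ± 2.77% at ZT2 (SD, n = 11; two-sided permutation test, p = 0.197). Xist separated the 11 female libraries (1787 to 6445 normalised counts) from the 12 male libraries (1.97 to 97.3). All 28 markers of medium spiny neurons, the projection neurons of the striatum, were measured. One library stood apart: female 9 at ZT2 had the lowest summed medium spiny level (295264, against 405898 to 476773 in the other ZT2 libraries) and the highest summed level of 4 cortical neuron markers (47675). Its count of Slc17a7, the vesicular glutamate transporter of cortical neurons, was 12864, against 136 to 5295 at ZT14 and 58.0 to 3037 in the other ZT2 libraries. Without it, 479 genes were higher and 469 lower at ZT14.

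The negative arm of the clock was high at ZT14 and the positive arm was low. Of 12 core clock genes, 6 rose (Per1, Per2, Per3, Cry2, Nr1d1 and Nr1d2), 2 fell (Arntl and Npas2), and Clock, Cry1, Rora and Rorb did not pass the test. Calls made up 66.7% of this list, beside 7.75% of all genes tested. The median log2 difference over the 12 genes was 0.18, beside -0.0023 over all genes. Of 8 measured clock output genes, 7 rose (Ciart, Dbp, Bhlhe40, Bhlhe41, Tef, Hlf and Usp2) and Wee1 did not pass the test, with a median of 0.73. Here calls made up 87.5%, again beside 7.75% of all genes tested.

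Ciart (chr3:95878503-95882251, minus strand, GRCm38), a repressor of the Arntl partnership, had the largest difference of any called gene. Its normalised count ranged from 398 through a median of 526 to 678 at ZT14, and from 59.7 through 115 to 145 at ZT2. Every ZT14 library lay above every ZT2 library, with a log2 difference of 2.22 ± 0.12 (SE; 4.66-fold; adjusted p = 5.24e-13).

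The 3 Period genes, the repressors that accumulate towards the night, all rose. Per2 ranged from 977 through 1650 to 2300 at ZT14 and from 417 through 658 to 931 at ZT2, with no overlap (log2 1.32 ± 0.13, 2.49-fold, adjusted p = 6.21e-08). Per1 ranged from 2367 through 3366 to 3586 at ZT14 and from 971 through 1349 to 2795 at ZT2 (1.22 ± 0.12, 2.33-fold, adjusted p = 5.25e-08). For Per1, 11 of 12 ZT14 libraries were above all of ZT2, and the highest ZT2 library was male 10. Per3 ranged from 553 through 591 to 700 at ZT14 and from 269 through 337 to 370 at ZT2, with no overlap (0.90 ± 0.07, 1.87-fold, adjusted p = 2.88e-10). Per3 overlaps Camta1 on the same strand, so reads of the overlap are uncertain.

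Among the cryptochromes, the partners of the Period proteins, Cry2 ranged from 3137 through 3479 to 3940 at ZT14 and from 2235 through 2919 to 3033 at ZT2. The groups did not overlap, at a log2 difference of 0.32 ± 0.05 (adjusted p = 0.000122), although the call was lost with libraries at an equal sum (0.23, adjusted p = 0.141). Cry1 ranged from 1164 through 1489 to 1894 at ZT14 and from 1282 through 1518 to 1833 at ZT2. The Cry1 ranges overlapped almost wholly, and the difference was -0.01 ± 0.07 (adjusted p = 0.949).

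The nuclear receptors Nr1d1 and Nr1d2 (REV-ERBs), which repress Arntl, both rose. Nr1d2 ranged from 2963 through 3586 to 4292 at ZT14 and from 2050 through 2205 to 2724 at ZT2, with no overlap (0.70 ± 0.06, adjusted p = 2.09e-09). Nr1d1 ranged from 1163 through 1931 to 2097 at ZT14 and from 783 through 1303 to 1693 at ZT2, with 9 of 12 ZT14 libraries above all of ZT2 (0.51 ± 0.11, adjusted p = 0.00234). Nr1d1 overlaps Thra on the other strand, and its call was lost at an equal sum (0.42, adjusted p = 0.0961).

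Arntl, the positive factor, fell 1.84-fold. It ranged from 821 through 981 to 1228 at ZT14 and from 1618 through 1764 to 2245 at ZT2, with every ZT14 library below every ZT2 library (-0.88 ± 0.07, adjusted p = 4.63e-10). Its partner Npas2, which takes the place of Clock in the forebrain, ranged from 1745 through 2012 to 2360 at ZT14 and from 2365 through 2685 to 2896 at ZT2, again with no overlap (-0.37 ± 0.05, adjusted p = 2.17e-05). Clock itself was at -0.16 ± 0.06 (adjusted p = 0.103) and passed the test only under some other settings, such as an equal sum (-0.26, adjusted p = 0.0377). Rora and Rorb, activators of Arntl, were at 0.03 and -0.13 (adjusted p = 0.771 and 0.324).

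**Figure D2:**
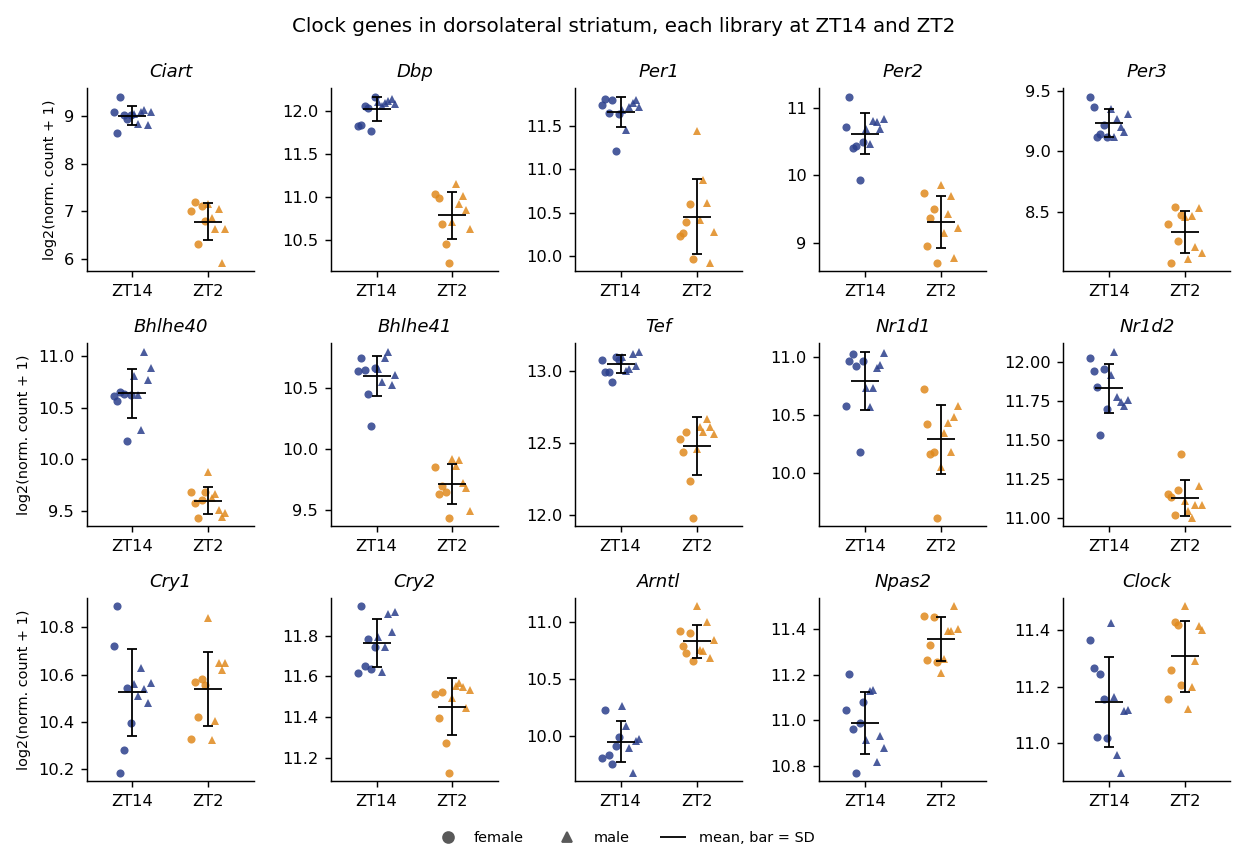
Log2 of the normalised count plus 1 of 15 clock genes in each library of dorsolateral striatum, ZT14 (blue, n = 12) left of ZT2 (orange, n = 11); circles are females, triangles males, and bars are mean and SD. Each panel has its own y range. The groups do not overlap for Ciart, Dbp, Per2, Per3, Bhlhe40, Bhlhe41, Tef, Nr1d2, Cry2, Arntl and Npas2, while Per1, Nr1d1, Cry1 and Clock overlap.

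The output factors Dbp, Tef and Hlf, which activate genes through D-boxes, rose together. Dbp ranged from 3476 through 4300 to 4593 at ZT14 and from 1202 through 1835 to 2263 at ZT2 (1.25 ± 0.08, 2.37-fold, adjusted p = 7.64e-12); it overlaps Sphk2 on the other strand. Tef ranged from 7783 through 8530 to 9016 at ZT14 and from 4041 through 6043 to 6494 at ZT2 (0.58 ± 0.06, adjusted p = 4.63e-08). Hlf, the smallest of the 3 differences, was at 0.40 ± 0.05 (adjusted p = 3.23e-06), and none of the 3 overlapped between times.

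Bhlhe40 and Bhlhe41 (DEC1 and DEC2), repressors that compete for E-boxes, also separated the groups completely. Bhlhe40 ranged from 1159 through 1580 to 2105 at ZT14 and from 693 through 781 to 941 at ZT2 (1.04 ± 0.08, 2.05-fold, adjusted p = 2.15e-10). Bhlhe41 ranged from 1164 through 1595 to 1777 at ZT14 and from 693 through 827 to 965 at ZT2 (0.89 ± 0.06, 1.85-fold, adjusted p = 2.15e-10). Usp2, a deubiquitinase of clock proteins, was at the limit of the test (0.23 ± 0.07, adjusted p = 0.0403), and its call was lost without female 9 (adjusted p = 0.0663), without male 10 (adjusted p = 0.0678) and at an equal sum (adjusted p = 0.491). Wee1, a cell cycle kinase with E-boxes, was at 0.16 ± 0.10 (adjusted p = 0.345). Among 9 clock modifiers such as casein kinases, Cipc, an inhibitor of Clock, was the 1 gene called (11.1%, beside 7.75% of all genes tested). Cipc ranged from 2063 through 2236 to 2395 at ZT14 and from 1436 through 1635 to 1893 at ZT2 (0.46 ± 0.04, adjusted p = 3.41e-08).

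The elements through which these genes are read were looked up in the 250 bases upstream of the start in RefSeq promoters (GRCm38.p6), where 13 of the 15 called core clock and clock output genes had an entry. The E-box CACGTG was found in 4 of the 13 (Ciart, Per1, Bhlhe41 and Tef), and the D-box, TTATGTAA or TTACGTAA on either strand, in 1 (Per3). The 4 promoters of largest difference with either motif are shown because each holds one of the 2 elements, the E-box in Ciart, Per1 and Bhlhe41 and the D-box in Per3, 5′ to 3′ on the strand of the gene, with E-boxes or D-boxes in capitals. Ciart lies at chr3:95882229-95882478 (minus strand), Per1 at chr11:69098699-69098948 (plus strand, 1 of its 2 listed promoters), Bhlhe41 at chr6:145865421-145865670 (minus strand) and Per3 at chr4:151044666-151044915 (minus strand).
Ciart: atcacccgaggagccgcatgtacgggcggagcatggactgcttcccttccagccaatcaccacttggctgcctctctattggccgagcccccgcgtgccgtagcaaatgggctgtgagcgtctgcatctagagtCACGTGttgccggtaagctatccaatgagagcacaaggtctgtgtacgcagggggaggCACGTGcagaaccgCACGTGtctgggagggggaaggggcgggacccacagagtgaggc
Per1: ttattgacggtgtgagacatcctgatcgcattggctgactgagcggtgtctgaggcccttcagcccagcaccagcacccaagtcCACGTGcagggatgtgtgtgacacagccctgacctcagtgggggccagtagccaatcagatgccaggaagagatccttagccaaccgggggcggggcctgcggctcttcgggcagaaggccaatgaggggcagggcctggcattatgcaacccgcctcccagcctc
Bhlhe41: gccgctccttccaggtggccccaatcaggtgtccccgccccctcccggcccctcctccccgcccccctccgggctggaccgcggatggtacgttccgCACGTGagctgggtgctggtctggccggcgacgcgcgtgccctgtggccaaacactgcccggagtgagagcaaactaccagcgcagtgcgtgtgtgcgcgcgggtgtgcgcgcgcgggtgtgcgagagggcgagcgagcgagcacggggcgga
Per3: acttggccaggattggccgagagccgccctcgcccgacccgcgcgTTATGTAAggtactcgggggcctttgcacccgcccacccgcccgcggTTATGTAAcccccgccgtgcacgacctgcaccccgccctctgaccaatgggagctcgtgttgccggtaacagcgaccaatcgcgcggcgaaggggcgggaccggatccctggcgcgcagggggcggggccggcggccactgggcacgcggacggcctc
Counted from the start, the first bases of the 3 E-boxes of Ciart were at -116, -58 and -44, that of Per1 at -166 and that of Bhlhe41 at -153, and the D-boxes of Per3 at -205 and -158.

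Across all called genes with a promoter entry, CACGTG stood upstream of 15.4% of 357 genes higher at ZT14 and 8.9% of 326 genes lower at ZT14. The share was 10.4% among all 8685 table genes with an entry and 6.02% among all 32851 RefSeq promoters. The D-box was found in 1.4% of the higher and 0.613% of the lower genes, beside 0.725% of table genes and 0.931% of all promoters. The element AGGTCA, bound by REV-ERB and ROR receptors, was found in 13.7% of higher and 13.8% of lower genes (12.3% of table genes, 14% of all promoters). The cAMP response element TGACGTCA was found in 4.2% of higher and 4.6% of lower genes (3.37% of table genes, 1.55% of all promoters). A gene was counted if any of its listed promoters held the element, whereas the shares of all promoters count each promoter singly. The gene shares and the promoter shares are therefore not like measures. These shares are descriptions of the windows and were not tested.

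Outside the clock lists, the largest increase at ZT14 among genes named by rule was in Nr4a1 (1.65), given with the immediate early genes, and the next in Ano2. Ano2, a calcium-activated chloride channel, ranged from 1032 through 1228 to 1347 at ZT14 and from 308 through 438 to 564 at ZT2. The groups lay far apart and the adjusted p was the smallest of all genes (1.46 ± 0.07, 2.76-fold, adjusted p = 8.86e-14). Kcna5, a voltage-gated potassium channel, ranged from 444 through 565 to 813 at ZT14 and from 174 through 273 to 362 at ZT2, without overlap (1.04 ± 0.11, 2.06-fold, adjusted p = 1.1e-07). Xdh, the xanthine dehydrogenase of purine breakdown, ranged from 138 through 304 to 462 at ZT14 and from 81.5 through 125 to 219 at ZT2 (1.14 ± 0.18, adjusted p = 8.52e-05). Klf2, a transcription factor of endothelial cells, ranged from 146 through 201 to 321 at ZT14 and from 52.7 through 100 to 194 at ZT2 (1.05 ± 0.18, adjusted p = 0.000293). Xdh and Klf2 overlapped between times, with 10 and 6 of 12 ZT14 libraries above all of ZT2.

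Both cold-inducible RNA-binding proteins rose. Rbm3 ranged from 450 through 833 to 1115 at ZT14 and from 143 through 384 to 508 at ZT2, with 11 of 12 ZT14 libraries above all of ZT2 (1.18 ± 0.15, 2.27-fold, adjusted p = 3.4e-06). Cirbp ranged from 354 through 499 to 635 at ZT14 and from 236 through 335 to 447 at ZT2 (0.56 ± 0.10, adjusted p = 0.000645).

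The largest decreases were in Ntng1 (netrin-G1), an axonal adhesion molecule of synapse formation, at 131 through 191 to 267 at ZT14 and 300 through 394 to 493 at ZT2. Every ZT14 library was below every ZT2 library (-1.05 ± 0.12, 2.07-fold lower, adjusted p = 6.53e-07). The growth factor gene Fgf3 ranged from 47.1 through 73.0 to 115 at ZT14 and from 102 through 141 to 189 at ZT2, with 11 of 12 ZT14 libraries below all of ZT2 (-0.95 ± 0.13, adjusted p = 2.55e-05). Kcns2, a modifying subunit of potassium channels, ranged from 633 through 773 to 970 at ZT14 and from 1103 through 1280 to 1461 at ZT2, with no overlap (-0.70 ± 0.07, adjusted p = 1.1e-07). The other 8 of the 12 largest decreases named by rule, besides Arntl, were Creb5, Atp2a3, Cbfa2t3, Lmcd1, Alpl, Clspn, Col4a1 and Dhrs3. Their differences lay between -0.87 (Creb5) and -0.68 (Dhrs3), and in each of them the groups overlapped. Cbfa2t3 and Col4a1 overlap Gm15899 and Col4a2.

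Of 16 glucocorticoid-responsive genes measured, 8 rose and 0 fell at ZT14 (Zbtb16, Tsc22d3, Sgk1, Nfkbia, Dusp1, Klf15, Klf9 and Mt1), with a median log2 difference of 0.31 beside -0.0023 over all genes. Calls made up 50% of the list, beside 7.75% of all genes tested. The summed level of the list, in which abundant members weigh most, was 19579 to 25289 at ZT14 and 15990 to 19027 at ZT2, with no overlap. Tsc22d3 (GILZ), a glucocorticoid-induced leucine zipper protein, ranged from 925 through 1260 to 1715 at ZT14 and from 504 through 694 to 814 at ZT2. Again the groups did not overlap (0.89 ± 0.08, 1.86-fold, adjusted p = 2.34e-08). Zbtb16, a zinc finger transcription factor, ranged from 193 through 413 to 574 at ZT14 and from 98.5 through 164 to 255 at ZT2 (1.24 ± 0.14, 2.36-fold, adjusted p = 5.28e-07).

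Sgk1, a kinase of ion transport, ranged from 1231 through 2265 to 3689 at ZT14 and from 1091 through 1245 to 1541 at ZT2 (0.77 ± 0.13, adjusted p = 0.000199). The spread at ZT14 was wide, with 9 of 12 libraries above all of ZT2. Nfkbia, an inhibitor of NF-κB, was at 0.66 ± 0.13 (adjusted p = 0.00201). Fkbp5, a co-chaperone of the receptor, was at 0.24 ± 0.08 (adjusted p = 0.0716), and Nr3c1, the glucocorticoid receptor itself, at -0.02 ± 0.05 (adjusted p = 0.875). With libraries at an equal sum 4 of the 16 genes were called.

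**Figure D3:**
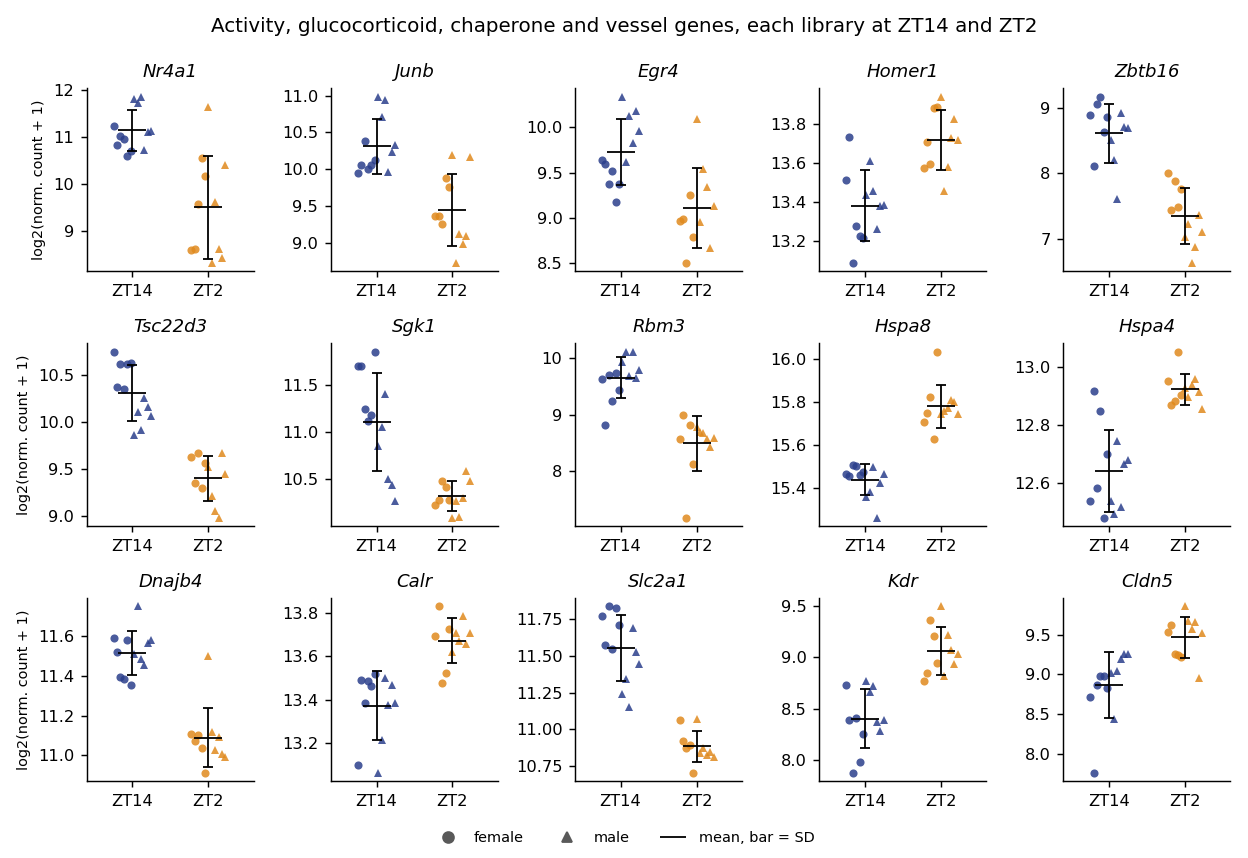
Log2 of the normalised count plus 1 of 15 activity, glucocorticoid, chaperone and vessel genes in each library, ZT14 (blue, n = 12) left of ZT2 (orange, n = 11); circles are females, triangles males, and bars are mean and SD. Each panel has its own y range. Hspa8, Tsc22d3, Slc2a1 and Kdr separate the times completely, whereas Nr4a1 spreads from 321 to 3208 normalised counts within ZT2.

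Immediate early genes, which neurons transcribe within minutes of activity, moved in both directions. Of 22 measured, 8 rose (Nr4a1, Egr2, Nr4a3, Junb, Arc, Egr4, Dusp6 and Dusp1), 3 fell (Homer1, Nptx2 and Jund) and the others did not pass the test, with a median log2 difference of 0.29. The called share was 50%, beside 7.75% of all genes tested. Dusp1 is also in the glucocorticoid list. Fos was at 0.27 ± 0.30 (adjusted p = 0.654), Egr1 at 0.31 ± 0.13 (adjusted p = 0.156) and Npas4 at -0.49 ± 0.21 (adjusted p = 0.159).

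Nr4a1, an orphan nuclear receptor, ranged from 1555 through 2146 to 3719 at ZT14 and from 321 through 759 to 3208 at ZT2. The groups overlapped, with 3 of 12 ZT14 libraries above all of ZT2 (1.65 ± 0.30, 3.14-fold, adjusted p = 0.000622). Male 10 at ZT2 had the highest ZT2 value of Nr4a1 (3208), Arc (6250), Junb (1171) and the summed list (54160, against 31278 to 43386 in the other ZT2 libraries and 30795 to 49643 at ZT14). Without it Nr4a1 was at 1.85 (adjusted p = 2.19e-05).

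The mice carry numbers up to 29 (5 at ZT14, 6 at ZT2) or from 31 (7 at ZT14, 5 at ZT2), and immediate early genes were also compared within each range. Among mice numbered from 31, Nr4a1 ranged from 1555 through 1990 to 2236 at ZT14 and from 321 through 392 to 786 at ZT2 (2.17, adjusted p = 1.85e-06). Among mice numbered up to 29, it ranged from 1810 through 3398 to 3719 at ZT14 and from 343 through 1248.5 to 3208 at ZT2, and the call was lost (1.33, adjusted p = 0.175). Called members of the list numbered 8 higher and 2 lower from 31, and 2 higher and 0 lower up to 29. What the ranges stand for is not given by the labels.

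Junb, a subunit of the AP-1 factor, ranged from 989 through 1157 to 2029 at ZT14 and from 422 through 657 to 1171 at ZT2 (0.87 ± 0.16, adjusted p = 0.000672); it overlaps Prdx2 on the other strand. Egr4, a zinc finger factor, was at 0.64 ± 0.12 (adjusted p = 0.00106). Homer1, a scaffold of glutamate synapses, ranged in the other direction, from 8704 through 10673 to 13643 at ZT14 and from 11231 through 13468 to 15725 at ZT2, with 9 of 12 ZT14 libraries below all of ZT2 (-0.34 ± 0.07, adjusted p = 0.0022). The count is per gene, so transcript forms of Homer1 are not told apart. The summed level of 4 markers of cortical neurons, cells that also express many of these genes, was 19832 to 42219 at ZT14 and 29053 to 47675 at ZT2. None of the 4 was called (median -0.45), and their part in the immediate early genes was not tested.

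Of 22 heat shock genes, 8 fell at ZT14 (Hspa8, Ahsa1, Hsph1, Hspa4, Fkbp4, Hsp90aa1, Stip1 and Dnaja1), 2 rose (Dnajb4 and Dnajb1) and 12 did not pass the test, with a median of -0.12. Calls made up 45.5% of the list, beside 7.75% of all genes tested. The summed level of the list was 132078 to 154423 at ZT14 and 162255 to 180805 at ZT2, with no overlap (medians 147098 and 165924). Abundant members weigh most in such a sum, and Hspa8 alone had medians of 45181 and 55410. Hspa8, the constitutive HSP70, ranged from 39332 through 45181 to 46594 at ZT14 and from 50639 through 55410 to 67110 at ZT2, and every ZT14 library was below every ZT2 library (-0.34 ± 0.05, 1.27-fold lower, adjusted p = 1.2e-05). Hspa4, a nucleotide exchange factor of HSP70, was at -0.28 ± 0.05 (adjusted p = 0.0003). The co-chaperones Dnajb4 and Dnajb1 moved the other way, at 0.43 ± 0.05 (adjusted p = 3.88e-06) and 0.41 ± 0.06 (adjusted p = 1.71e-05). Within mice numbered up to 29 the list gave 1 higher and 0 lower call, with Hspa8 at -0.36 (adjusted p = 0.0849); within those from 31 it gave 2 higher and 4 lower.

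Of 20 chaperones and stress factors of the endoplasmic reticulum, 5 fell and 0 rose (25%, beside 7.75% of all genes tested), with a median of -0.07. The 5 were Calr, a calcium-binding lectin chaperone (-0.30 ± 0.06, adjusted p = 0.00107), Dnajb11, Pdia6, Hsp90b1 (-0.25 ± 0.05, adjusted p = 0.000619) and the stress sensor Atf6 (-0.24 ± 0.05, adjusted p = 0.00235). Hspa5, the main HSP70 of that compartment, was at -0.12 ± 0.08 (adjusted p = 0.358). All 5 were also called among mice numbered from 31 and 0 among those up to 29.

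**Figure D4:**
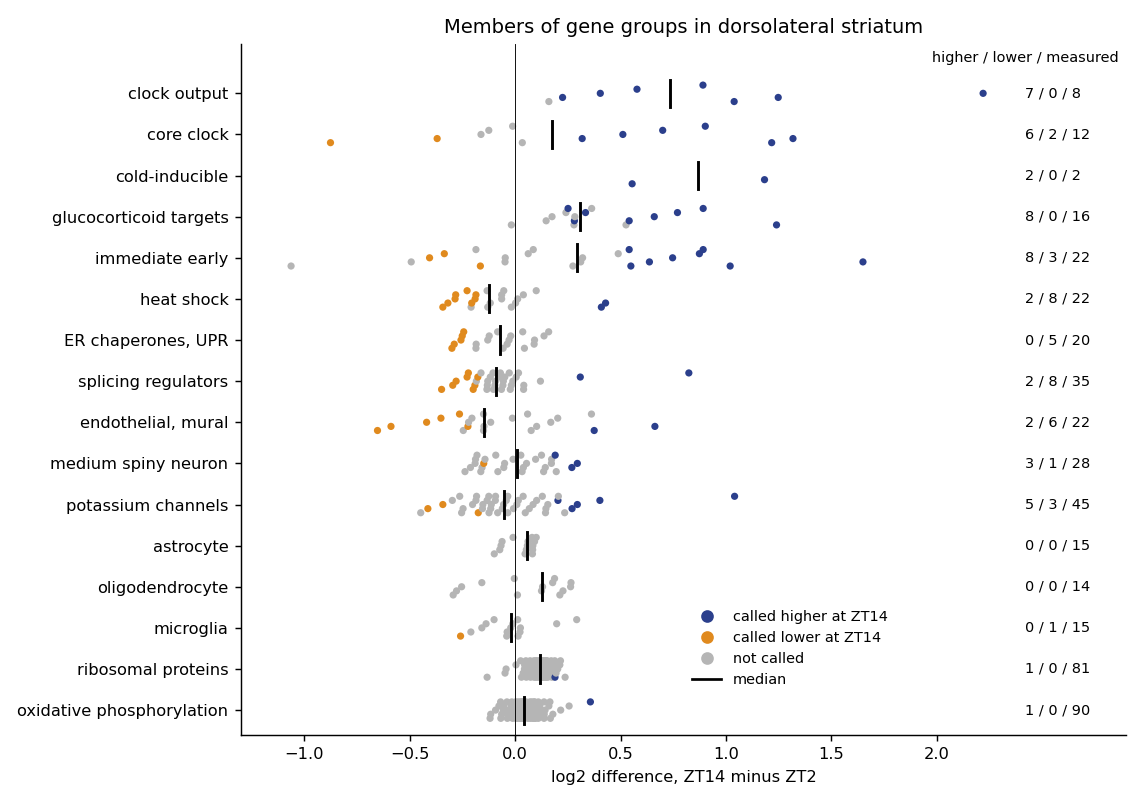
Log2 difference (ZT14 minus ZT2, x axis) of each measured member of 16 gene groups (rows) in dorsolateral striatum. Blue members were called higher at ZT14, orange members lower and grey members not called at an adjusted p of 0.05, the bar is the median, and the numbers at the right count called higher, called lower and measured. Clock output, cold-inducible and glucocorticoid genes hold only higher calls, heat shock, splicing and vessel genes hold mostly lower calls, and 78 of 81 ribosomal protein genes lie above 0 with 1 of them called.

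Regulators of splicing gave 8 lower and 2 higher calls of 35 (28.6%, beside 7.75% of all genes tested), with a median of -0.09. The 8 were RNA-binding factors, with Srsf5, Srsf6, Srsf11 and Srsf12 from the SR family and Hnrnpm, Hnrnpdl, Hnrnpa2b1 and Hnrnpc from the hnRNP family. Srsf6 ranged from 762 through 844 to 980 at ZT14 and from 962 through 1011 to 1260 at ZT2 (-0.30 ± 0.05, adjusted p = 0.000458). The 2 that rose were kinases that phosphorylate SR proteins. Clk1 ranged from 704 through 866 to 1206 at ZT14 and from 331 through 539 to 822 at ZT2 (0.82 ± 0.13, 1.77-fold, adjusted p = 0.000119), and Clk4 was at 0.31 (adjusted p = 0.0497). The higher count was 1 in 16 of the 23 fits that left out 1 library, the one without female 9 among them. The list gave 1 higher and 0 lower calls among mice numbered up to 29, and 2 and 6 among those from 31.

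Genes of blood vessels split. Of 22 endothelial and mural markers, 6 fell (Kdr, Cldn5, Cdh5, Pecam1, Tek and Pdgfrb) and 2 rose (Slc2a1 and Ly6c1), with a median of -0.15 and overlapping sums (17656 to 20860 at ZT14, 16432 to 20064 at ZT2). The called share was 36.4%, beside 7.75% of all genes tested. Slc2a1 (GLUT1), the glucose transporter of the blood-brain barrier, ranged from 2271 through 3022 to 3654 at ZT14 and from 1668 through 1869 to 2154 at ZT2, with no overlap (0.66 ± 0.06, 1.58-fold, adjusted p = 5.25e-08). Kdr, the main VEGF receptor, ranged from 235 through 335 to 436 at ZT14 and from 437 through 524 to 721 at ZT2, again with no overlap (-0.65 ± 0.10, 1.57-fold lower, adjusted p = 7.08e-05). Cldn5, the tight junction protein, ranged from 217 through 505 to 612 at ZT14 and from 497 through 741 to 925 at ZT2 (-0.59 ± 0.13, adjusted p = 0.00307). Within mice numbered up to 29, Slc2a1 was the 1 member called (0.56, adjusted p = 0.0202), and Kdr was at -0.52 (adjusted p = 0.0865). Col4a1, a basement membrane collagen, was the 1 of 7 matrix genes called (-0.68 ± 0.12, adjusted p = 0.000356). That is 14.3% of the matrix list, beside 7.75% of all genes tested.

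Of 28 medium spiny markers, 3 rose (Arpp19, Tac1 and Ppp1r1b) and 1 fell (Ptpn5), which is 14.3% beside 7.75% of all genes tested. The 4 differed by 0.30 or less on the log2 scale, and the list had a median of 0.01 and overlapping sums (384574 to 458965 at ZT14, 295264 to 476773 at ZT2). Arpp19, a phosphatase inhibitor regulated by cAMP, was at 0.27 ± 0.05 (adjusted p = 0.000913), and Ppp1r1b (DARPP-32) at 0.30 ± 0.09 (adjusted p = 0.0377). At an equal sum 0 were called in either direction, and without female 6 of ZT2 the counts were 1 higher and 0 lower. Without female 9 the counts were 2 higher and 7 lower, and Ppp1r1b was at 0.23 (adjusted p = 0.0565). Among mice numbered from 31 the counts were 0 higher and 3 lower, and among those up to 29 none was called. The calls of Ppp1r1b and Ptpn5 were each lost in 13 of the 23 fits that left out 1 library. The dopamine receptors Drd1 and Drd2 were at 0.13 ± 0.06 and -0.08 ± 0.08 (adjusted p = 0.223 and 0.625).

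Among dopamine, opioid and endocannabinoid genes, 1 of 16 rose and 1 fell (12.5%, beside 7.75% of all genes tested). Cnr1, the cannabinoid receptor that marks the lateral striatum, ranged from 10709 through 13457 to 15658 at ZT14 and from 14020 through 15989 to 21755 at ZT2 (-0.29 ± 0.07, adjusted p = 0.00764). Ddc, the decarboxylase of dopamine synthesis, was at 0.51 ± 0.13 (adjusted p = 0.0158). Among mice numbered up to 29 and from 31, the calls of Cnr1 (adjusted p = 0.0796 and 0.177) and Ddc (adjusted p = 0.251 and 0.221) were lost. The Ddc call was also lost at an equal sum (adjusted p = 0.0939). Of 11 genes graded across the striatum, Coch, Lypd1 and Cnr1 fell (27.3% of that list). Coch, an extracellular matrix protein, ranged from 2068 through 2360 to 2809 at ZT14 and from 2945 through 3871 to 4471 at ZT2, with no overlap (-0.63 ± 0.07, 1.55-fold lower, adjusted p = 1.54e-07). The ventral markers Crym and Wfs1 overlapped between times (0.23 and 0.34, adjusted p = 0.414 and 0.268).

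Of 45 potassium channels, 5 rose (Kcna5, Kcnh5, Kcnj2, Kcnh3 and Kcnn2) and 3 fell (Kcnk1, Kcnd3 and Kcnh7; 1 to 5 with each library left out in turn), or 17.8% beside 7.75% of all genes tested, with a median of -0.06. At an equal sum 1 was higher and 4 were lower. Of 12 GABA-A receptor subunits, Gabra2 was the 1 called (8.33%, beside 7.75% of all genes tested). Gabra2 fell, with 938 through 1063 to 1529 at ZT14 and 1165 through 1441 to 1779 at ZT2 (-0.41 ± 0.08, 1.33-fold lower, adjusted p = 0.000662). Of 22 glutamate receptor genes, the kainate subunit Grik5 rose (0.48 ± 0.07, adjusted p = 3.72e-05), while the kainate subunit Grik2 and the AMPA subunit Gria3 fell by 0.20 each on the log2 scale (adjusted p = 0.0333 and 0.0497), so that 13.6% of the list was called. Leaving out 1 library ended the Gria3 call in 17 and the Grik2 call in 9 of 23 fits. Of 29 sodium and calcium channel genes, 6.9% were called, a share below the 7.75% of all genes tested. The auxiliary subunit Cacnb2 rose and Cacnb1 fell, at 0.29 ± 0.08 and -0.30 ± 0.08 (adjusted p = 0.0229 and 0.0122). The Cacnb1 call was lost among mice numbered up to 29 and from 31 (adjusted p = 0.381 and 0.0728). Cacnb2 lost its call up to 29 (adjusted p = 0.671) and at an equal sum (adjusted p = 0.315). Of 56 axon guidance genes, Ntng1, Sema5b, Sema4c, Sema7a and Sema6d fell and Epha8 rose (10.7%, beside 7.75% of all genes tested).

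Of 192 solute carriers, 12 rose and 5 fell (8.85%, beside 7.75% of all genes tested), with a median of -0.002. The lower count was 3 without any 1 of 8 libraries (females 21 and 41 and males 41 and 42 of ZT14, females 6, 31 and 33 and male 10 of ZT2). Slc6a15, a transporter of neutral amino acids, ranged from 849 through 1030 to 1108 at ZT14 and from 692 through 748 to 798 at ZT2, with no overlap (0.43 ± 0.05, adjusted p = 7.65e-07). Slc25a25, a mitochondrial carrier of ATP and phosphate, was at 0.58 ± 0.07 (adjusted p = 2.45e-06), and it overlaps Naif1. With libraries at an equal sum this list gave 4 higher and 10 lower calls.

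Glial and other cell type markers were mostly uncalled. None of 15 astrocyte markers was called (median 0.06, sums of 124192 to 170357 at ZT14 and 127878 to 162564 at ZT2), none of 14 oligodendrocyte markers (median 0.13; 4 higher without female 25 of ZT14), none of 11 interneuron markers (median -0.02) and none of 5 red blood cell genes (median 0.22). Vcan, 1 of 10 oligodendrocyte precursor markers, fell (-0.49 ± 0.12, adjusted p = 0.0103). Cx3cr1, the fractalkine receptor and 1 of 15 microglial markers, fell (-0.26 ± 0.07, adjusted p = 0.0186), and its locus overlaps 3 other genes. The called shares of the precursor and microglial lists were 10% and 6.67%, beside 7.75% of all genes tested. Clic6, the 1 measured gene of 11 choroid plexus and ependymal markers, ranged from 107 through 178 to 257 at ZT14 and from 34.8 through 99.3 to 150 at ZT2 (0.88 ± 0.19, adjusted p = 0.00268).

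Ribosomal proteins gave 1 higher and 0 lower calls of 81 (Rpl3; median 0.12), oxidative phosphorylation 1 and 0 of 90 (Atp5g2; median 0.04), mitochondrial ribosomes 0 and 1 of 77 (Mrpl16; median -0.02) and Rab GTPases 0 and 1 of 42 (Rab6b; median -0.01). Differences lay above 0 in 78 of the 81 ribosomal and 71 of the 90 oxidative phosphorylation genes, but at an equal sum the 2 medians were 0.03 and -0.05 and the calls of Rpl3 and Atp5g2 were lost. In the main fit, 1.23% of ribosomal protein and 1.11% of oxidative phosphorylation genes were called. The shares were 1.3% for mitochondrial ribosomes and 2.38% for Rab GTPases, beside 7.75% of all genes tested. The proteasome gave none of 45, and the 13 mitochondrially encoded genes gave none. These counts depended on single libraries: ribosomal proteins gave 11 higher calls without female 25 of ZT14, 7 without female 42 of ZT14 and 7 without female 9 of ZT2, and oxidative phosphorylation gave 5 without female 9.

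No gene passed the test of a sex difference. The female difference (ZT14 minus ZT2) and the male difference were compared directly, and limma called 0 of 11394 genes as different (0.0%), while 360 passed an unadjusted p of 0.05. Within females 148 genes were higher and 68 lower at ZT14, and within males 122 and 102. All 92 called genes named by rule had the same sign in both sexes. They were called in the fit of both sexes together, a choice that favours a shared sign. Ciart was at 2.14 ± 0.18 in females and 2.29 ± 0.17 in males, Arntl at -0.88 ± 0.10 and -0.88 ± 0.09, and Ano2 at 1.47 ± 0.11 and 1.46 ± 0.10. Sgk1 was at 1.13 ± 0.16 in females (adjusted p = 9.72e-05) and 0.45 ± 0.15 in males (adjusted p = 0.139), a contrast that did not pass the test of the difference.

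The difference between ZT14 and ZT2 was then set against the differences between the other pairs of times 12 h apart, ZT18 minus ZT6 and ZT22 minus ZT10, which share no library with it. Against ZT18 minus ZT6, 286 genes had a more positive and 365 a more negative difference (5.71% of genes tested, 2.51% and 3.2%), and against ZT22 minus ZT10, 801 and 813 (14.2%, 7.03% and 7.14%). Male 13 of ZT6, included here, had 68.4% of its normalised counts in Gm42418 and Gm26917. The median share over the 70 DLS libraries was 1.55%. Without male 13 the counts were 276 and 340 against ZT18 minus ZT6, and 840 and 855 against ZT22 minus ZT10. Of the 454 genes higher at ZT14 than at ZT2, 137 differed from ZT18 minus ZT6, 304 from ZT22 minus ZT10 and 117 from both. Of the 454, 71 were also called higher at ZT18 than at ZT6, and 7 at ZT22 over ZT10, where 105 were called in the opposite direction. Of the 429 lower genes, 157, 334 and 143 differed, 46 and 1 were called in the same direction, and 107 were called in the opposite direction at ZT22 against ZT10. Over all 11394 genes, 428 were called higher and 371 lower at ZT18 than at ZT6. At ZT22 against ZT10, 366 of the 11394 were called higher and 356 lower.

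Among the clock genes, Ciart averaged 6.79, 8.06, 9.12, 9.01, 7.89 and 7.05 (log2) at ZT2, ZT6, ZT10, ZT14, ZT18 and ZT22, so its differences were 2.22 for ZT14 minus ZT2, -0.16 for ZT18 minus ZT6 and -2.07 for ZT22 minus ZT10. Arntl ran the other way with 10.83, 10.06, 9.56, 9.95, 10.24 and 10.46, giving -0.88, 0.19 and 0.90. Cry1 averaged 10.54, 9.83, 9.81, 10.53, 10.85 and 10.45. ZT14 and ZT2 therefore stood at the same level on the rising and the falling side of its cycle, with -0.02 for ZT14 minus ZT2 but 1.01 for ZT18 minus ZT6 (test of the difference, adjusted p = 2.11e-11). Nr1d1 showed 0.51 for ZT14 minus ZT2, against -0.90 and -1.58 for the other pairs (tests of the difference from each pair, adjusted p = 7.7e-13 and 2.93e-21).

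Per2 was high at both ZT14 and ZT18, with differences of 1.31, 1.55 and -0.32, and the test of ZT14 minus ZT2 against ZT18 minus ZT6 was not passed (adjusted p = 0.54). Ano2 averaged 8.78, 9.35, 10.26, 10.24, 9.15 and 8.51 over the 6 times, close to the order of Ciart. Tsc22d3 was highest at ZT14, with 9.40, 9.55, 9.78, 10.30, 9.89 and 9.64.

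Genes lower at ZT14 had profiles of more than one shape. Hspa8 averaged 15.78, 15.62, 15.33, 15.44, 15.81 and 15.83, so it was lowest around lights off and differed by -0.34, 0.19 and 0.50 for the 3 pairs (test of ZT14 minus ZT2 against ZT22 minus ZT10, adjusted p = 1.91e-14). Homer1 averaged 13.72, 13.40, 13.17, 13.38, 13.74 and 13.50, and its difference turned to 0.34 for ZT18 minus ZT6 (test of ZT14 minus ZT2 against ZT18 minus ZT6, adjusted p = 1.07e-08). Gabra2, which encodes a GABA-A receptor subunit, gave -0.41, 0.24 and 0.57, and Rab3ip, an activator of Rab8, gave -0.26, 0.60 and 0.22. Coch stayed low for longer, with 11.85, 11.80, 11.50, 11.23, 11.27 and 11.67, and its difference of -0.63 stood beside -0.53 for ZT18 minus ZT6, a contrast that did not pass the test (adjusted p = 0.707).

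**Figure D5:**
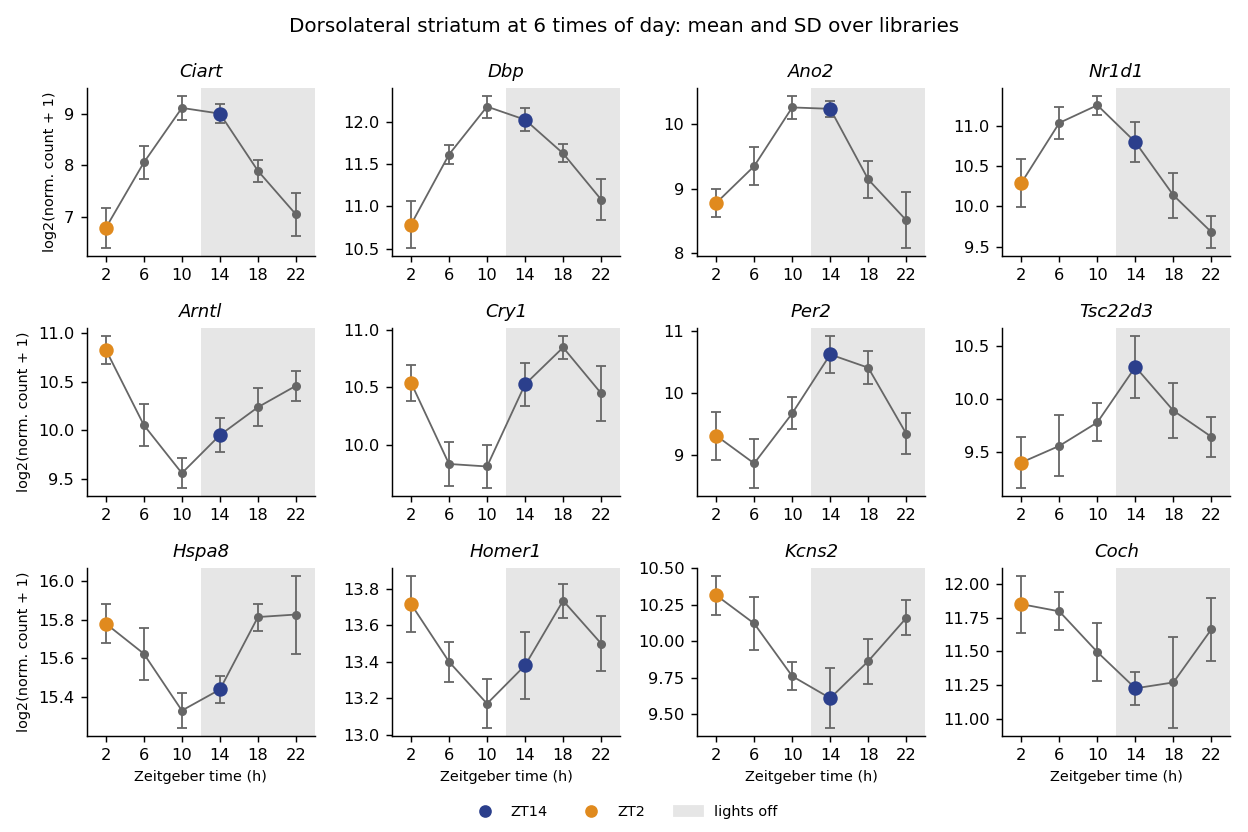
Mean and SD of log2 of the normalised count plus 1 for 12 genes in dorsolateral striatum at the 6 times of day (x axis, Zeitgeber time in h; n = 11 or 12 libraries each); shading marks lights off, and the large points are ZT14 (blue) and ZT2 (orange). Each panel has its own y range. The ZT6 values include male 13. Ciart, Dbp and Ano2 are high at ZT10 and ZT14, Arntl is lowest at ZT10, and Cry1 passes the same level at ZT14 and ZT2.

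Other striatal regions of partly the same animals were used to ask where the dorsolateral difference stood out. Each table was normalised separately by the authors, so only differences within a table were compared. Against the dorsomedial striatum (DMS), 0 of 11365 shared genes differed (0.0%; 955 passed an unadjusted p of 0.05), and 17 animals were common to both. In the DMS table itself 573 genes were higher and 696 lower at ZT14. Ciart, for example, was at 2.20 in DLS and 1.64 in DMS, and Arntl at -0.87 in both.

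Against the nucleus accumbens (NAc), the ventral striatum, 8 of 11289 shared genes differed (0.0709%), 7 with a more positive (0.062%) and 1 with a more negative (0.00886%) difference in DLS. Ano2 was at 1.47 in DLS and 0.48 in NAc (difference 0.98 ± 0.13, adjusted p = 1.89e-05), and Kcna5 at 1.03 in DLS and 0.25 in NAc (0.78 ± 0.16, adjusted p = 0.0357). Ciart and Per1 were also larger in DLS, by 0.99 ± 0.22 and 0.83 ± 0.18 (adjusted p = 0.0431 each). Spon1, a secreted matrix protein of axon outgrowth, fell in DLS (-0.58) and was at 0.04 in NAc (-0.61 ± 0.13, adjusted p = 0.0357). The NAc table holds 9 values below 0, which the log2 of a count plus 1 cannot give, against 0 in the DLS table. What else was done to the NAc values is not given in the sources used here, and its part in these differences was not tested. In the NAc table itself 24 genes were higher and 9 lower at ZT14.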

How the data were processed

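Per the labels' protocols and the design text, total RNA of bilateral punches was made into stranded ultra-low-input libraries, sequenced from both ends (75 bp, 40 M reads intended per library), aligned with HISAT2 2.1.0 to GRCm38 and counted with HTSeq 0.10.0 in union mode. The submitters' processing notes also list a human build, which contradicts the mouse labels. No source gives the strand setting of the counting, so overlapping genes and near-identical copies may share reads. The authors filtered each region separately, normalised its counts with DESeq2 and deposited their log2. For DLS there are 11394 genes (11395 per the labels), 11371 with a symbol in GENCODE M21, and 0 columns of samples outside the study. Undoing the log2 with a pseudocount of 1 gave whole reads for 100% of values in the 23 libraries (tolerance 0.01 reads). The precision follows from the spread between animals, and no counting interval is given.

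Differences are ZT14 minus ZT2 from limma 3.58.1 (R 4.3.3, statmod 1.5.0, and version 1.17.8 of data.table) with sex as a covariate, a variance trend and Benjamini-Hochberg adjustment over all genes. Sex, the other time pairs (6 levels of time) and regions (animal as a block, range of animal numbers as a term) were compared by tests of the difference. Genes are named by rule: the 12 largest called differences in each direction, up to 4 called members of each list, all core clock, clock output and cold-inducible genes, the 4 of smallest p in each direction of each further comparison, and region and sex checks. Genes with no symbol, or with Gm, Rik, clone or accession names, were left out of the largest differences and of the further comparisons. Other genes named were chosen as members of the lists after their values were seen. The sterol list is not reported here. Members and lists were chosen with earlier results of these data known. Alternatives covered scaling, pseudocount, filters, variance model, covariates, blocks, voom on recovered reads and leaving out each library. Fits were tested on simulated data. Tables and plots used Python 3.11.15, pandas 2.3.3, numpy 2.4.6, scipy 1.17.1 and matplotlib 3.10.9.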

Additional observations from a re-analysis of the deposited data

Results flagged for a closer look

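The difference between ZT14 and ZT2 differed between DLS and NAc in 8 genes, tested as the DLS difference minus the NAc difference in limma with Benjamini-Hochberg adjustment. The 5 given here are the called ones among the 4 of smallest p in each direction under the naming rule, which leaves out clone and accession names. Ciart (0.989) and Per1 (0.828) also differed (adjusted p = 0.0431 each). Ano2, a calcium-activated chloride channel, differed by 0.982 (adjusted p = 1.89e-05), with 1.47 in DLS and 0.48 in NAc. Bhlhe41, a clock repressor, differed by 0.609 (0.89 in DLS and 0.28 in NAc), Kcna5, a potassium channel, by 0.778 (1.03 and 0.25) and Id4, an inhibitor of differentiation factors, by 0.622 (0.55 and -0.07). Spon1 differed by -0.612, with -0.58 in DLS and 0.04 in NAc. The adjusted p was 0.0357 for each of these 4. The counts were 7 positive and 1 negative also without the animal block and without the term for the range of animal numbers.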

How the results depend on the processing

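All 883 called genes kept their sign in the alternatives that used all genes, and no single gene reversed. These alternatives reuse libraries of the main fit, which favours a kept sign. The balance of counts turned in several settings, of which some are given here. At an equal sum it turned for all genes (below), solute carriers (12 higher and 5 lower to 4 and 10) and potassium channels (5 and 3 to 1 and 4). For medium spiny markers (3 and 1) it turned without female 9 (2 and 7) and among mice numbered from 31 (0 and 3). Among mice numbered up to 29, heat shock genes (2 and 8), splicing regulators (2 and 8) and vessel markers (2 and 6) each gave 1 and 0. Against 454 higher and 429 lower genes, the counts were within 1.5 times under voom on recovered reads (445 and 446, with 845 calls shared), an equal sum without the 3 most abundant genes (409 and 428), a pseudocount of 10 (455 and 430), no variance trend (437 and 394), no sex term (452 and 420), the number range as a covariate (546 and 504), the mitochondrial rRNA share as a covariate (516 and 426) and all 70 libraries (472 and 472). The planned filter at a mean log2 of 5 removed no gene; one at 8, added after the data were seen, gave 397 and 380. The counts moved further under an equal sum over all genes (111 higher, 485 lower), library weights (691 and 649), mice numbered up to 29 (49 and 24) and mice numbered from 31 (281 and 212), where fewer libraries were tested. Leaving out each library in turn gave 400 to 543 higher and 344 to 539 lower genes, lowest without male 41 and highest without female 25, both of ZT14. Male and female mice sharing a number had residual correlations of -0.394 to 0.22 in 8 pairs. These values cannot settle whether a shared number links 2 mice, and the main fit held no block on it. A replicate block on the number had a consensus correlation of 0.168. The animal block had 0.167 in the DMS comparison (17 shared animals) and -0.0239 in the NAc comparison (20 shared animals). The block on the number gave 381 and 324, with 705 of the 883 calls shared, and Usp2, Ptpn5 and Gria3 did not pass under it. The sex and DMS comparisons gave 0 calls in every alternative. Of 92 named calls, 74 held at an equal sum, 32 up to 29, 68 from 31 and 92 under voom. Without 1 library, Gria3 lost its call in 17 cases, Usp2 in 15, Ppp1r1b and Ptpn5 in 13, Grik2 in 9 and Rab3ip in 8. Causes were not tested.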

Other observations

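Beyond the lists, the genes given here were chosen after their values were seen, the first 5 from the 30 genes of which every ZT14 library was above every ZT2 library. Camk1g, a calcium and calmodulin-dependent kinase, was at a log2 difference of 0.82 (ZT14 minus ZT2; limma adjusted p = 5.28e-07), and Camkk1, a kinase that activates such kinases, at 0.74 (adjusted p = 2.29e-08). Coq10b, a coenzyme Q chaperone of mitochondria, was at 0.88 (adjusted p = 2.53e-07), and Dclk1, a microtubule-associated kinase, at 0.49 (adjusted p = 1.48e-07). Plk2, an activity-regulated kinase of synapses, was at 0.33 (adjusted p = 2.55e-05). Among the 17 genes lower at ZT14 in every library, Rxrg, a retinoid receptor of medium spiny neurons, was at -0.36 (adjusted p = 6.39e-05). Rims4, a protein of the presynaptic active zone, was at -0.50 (adjusted p = 1.67e-05), and Galnt17, a glycosyltransferase, at -0.56 (adjusted p = 2.95e-06).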
